A study of Mus musculus and Homo sapiens with 17 samples.

Results

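RNA counts of 10 transcription factor genes that set squamous identity, mark tumour-initiating cells or drive the differentiation of skin keratinocytes were read across lesions of Dusp1 mice and in A431 xenografts. The 10 genes were Trp63, Sox2, Pitx1, Hmga2, Sox9, Klf4, Gata3, Ovol1, Grhl3 and Pou3f1, taken by their symbols from the 55988 features of the mouse table. Their human forms, TP63, SOX2, PITX1, HMGA2, SOX9, KLF4, GATA3, OVOL1, GRHL3 and POU3F1, were taken from the 58958 features of the A431 table. All 10 were found once in each table, and all 10 passed the filter on low counts in both. They were chosen by name, with earlier results of these data known.

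The 11 mouse libraries came from animals labelled C57BL/6-129, and all had been given DMBA, a carcinogen that mutates DNA, and TPA, a promoter of tumour growth. They held 3 libraries of treated skin (WT skin) and 3 of squamous cell carcinoma (WT SCC) from wild-type mice, with 3 of benign papilloma (KO papilloma) and 2 of carcinoma (KO SCC) from mice labelled Dusp1KO. No library of wild-type papilloma or of Dusp1KO skin was analysed here. The papilloma comparisons with wild-type groups therefore change lesion type and genotype label together, which cannot be told apart. The same holds for tissue state and genotype label in KO SCC against WT skin. The labels give neither the design of the Dusp1 allele nor the age of the mice, and whether each library is a separate animal is not stated, so the p-values reflect the scatter of these libraries, which may be technical in part. RNA was taken from whole frozen sections, so a level reflects all cells of the section although the labels name keratinocytes, and fewer cells of a type cannot be told apart from less RNA per cell. A431, a human epidermoid carcinoma line, carried a guide RNA named for Tomato (A431 control, 3 libraries) or for DUSP1 (A431 KO, 3 libraries). The column names of the 3 KO libraries share a tag, CL2, that the labels do not explain, and KO libraries 2 and 3 also share the number after it. Whether the KO cells are 1 clone and the libraries separate tumours is not stated, so A431 p-values may measure only the spread between libraries. For each tumour 100000 A431 cells were injected into the dermis and grew for 3 weeks, and mouse cells were depleted before extraction.

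DUSP1 is a phosphatase that inactivates MAP kinases and thereby limits the signal that growth factors and stress send to the nucleus. In the epidermis p63, the protein of Trp63, keeps basal keratinocytes in the squamous lineage, and leaving the basal layer is directed by factors such as Klf4, Ovol1 and Grhl3. Sox2 and Pitx1 are almost silent in adult interfollicular epidermis and are known for marking tumour-propagating cells of squamous carcinomas, while Hmga2 is a chromatin protein of embryonic and tumour cells. Sox9 and Gata3 act in the hair follicle, in its stem cells and in the inner root sheath respectively. Gata3 is also expressed by T cells, and Pou3f1, a POU factor of suprabasal epidermis, by Schwann cells.

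Promoter sequences were matched in RefSeq (GRCm38.p6) for 5 of the 10 genes, Sox2, Hmga2, Klf4, Gata3 and Grhl3. The 250 bases before the RefSeq start, on the coding strand and 5′ to 3′, are shown for the pair that was almost absent from skin and present in every lesion (Sox2 at chr3:34649745-34649994, plus strand, and Hmga2 at chr10:120476470-120476719, minus strand). They are also shown for the gene that was lower in every lesion group (Gata3 at chr2:9878601-9878850, minus strand) and for a differentiation factor that was higher in every lesion group (Grhl3 at chr4:135573633-135573882, minus strand). Capitals mark matches to 1 of 6 motifs searched on both strands.
Sox2: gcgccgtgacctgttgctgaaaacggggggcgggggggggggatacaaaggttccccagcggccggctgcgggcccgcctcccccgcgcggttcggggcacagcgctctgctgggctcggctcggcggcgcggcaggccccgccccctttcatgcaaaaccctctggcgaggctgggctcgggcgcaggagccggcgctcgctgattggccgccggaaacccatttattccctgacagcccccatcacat
Hmga2: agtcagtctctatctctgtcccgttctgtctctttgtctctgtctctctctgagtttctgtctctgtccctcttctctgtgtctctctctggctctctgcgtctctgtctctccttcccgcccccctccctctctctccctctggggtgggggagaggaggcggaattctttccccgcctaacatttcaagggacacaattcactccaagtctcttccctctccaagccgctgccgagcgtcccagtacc
Gata3: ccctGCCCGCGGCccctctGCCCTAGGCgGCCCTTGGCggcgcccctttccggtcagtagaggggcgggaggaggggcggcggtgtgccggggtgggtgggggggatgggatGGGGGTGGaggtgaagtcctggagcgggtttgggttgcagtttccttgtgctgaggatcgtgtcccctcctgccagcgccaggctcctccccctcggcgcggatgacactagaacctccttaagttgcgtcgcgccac
Grhl3: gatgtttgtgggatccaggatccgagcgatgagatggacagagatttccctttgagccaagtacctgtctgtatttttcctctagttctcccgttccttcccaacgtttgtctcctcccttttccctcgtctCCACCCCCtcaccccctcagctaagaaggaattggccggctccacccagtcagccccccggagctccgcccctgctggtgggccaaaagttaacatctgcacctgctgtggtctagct

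The motifs were TGANTCA for AP-1, TATAAA for the TATA box, AGATAA for GATA factors, AACNGGTT for Grainyhead factors such as Grhl3, GGGNGTGG for KLF and SP factors and GCCNNNGGC for AP-2. Over the full window of 300 bases (250 before and 50 after the start), Gata3 held 3 matches to the AP-2 letters and 1 to the KLF and SP letters. Grhl3 held 1 match to the KLF and SP letters, Klf4 held 1 to the AP-2 letters, and no letters matched in the windows of Sox2 and Hmga2. Of all 32851 RefSeq windows of that length, 16.6% held the AP-2 letters, 17.6% the KLF and SP letters, 7.81% those of AP-1, 13.6% the TATA box, 11.2% those of GATA factors and 2.09% those of Grainyhead factors. The windows of the 5 genes were rich in G and C. Their GC content was 66.3% in Sox2, 57.7% in Hmga2, 74.3% in Klf4, 67.3% in Gata3 and 58.3% in Grhl3, against a median of 52.7% over all windows. CpG pairs numbered 27 in Sox2, 12 in Hmga2, 40 in Klf4, 22 in Gata3 and 12 in Grhl3, against a median of 7. The RefSeq start of Gata3 lies inside the GENCODE gene, whose outermost start is further upstream. The window of Sox2, which ends at chr3:34650044, lies wholly upstream of the GENCODE gene, which starts at chr3:34650405.

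The genes lie apart in the mouse genome and none is on the chromosome of Dusp1. In GENCODE M21 on GRCm38 all 10 are protein-coding, among them Trp63 at chr16:25683763-25892102, Sox2 at chr3:34650405-34652461, Pitx1 at chr13:55825051-55836192, Hmga2 at chr10:120361275-120476469 and Sox9 at chr11:112782224-112787760. Klf4 lies at chr4:55527143-55532466, Pou3f1 at chr4:124656807-124660655 and Grhl3 at chr4:135541888-135573630, with Gata3 at chr2:9857078-9890034 and Ovol1 at chr19:5549136-5560646. Pitx1 is overlapped by the antisense gene Gm47071, which held 156 to 1152 counts in a mouse library, so the part of its reads that was given to Pitx1 is uncertain. Gm28760, on the strand of Pitx1, held 0 to 50. Sox2 lies within the transcript Sox2ot on the same strand, with 2 to 30 counts, and Ovol1 is overlapped by the pseudogene Gm31166, with 2 to 166. Gata3 is overlapped by 9230102O04Rik on the same strand (1 to 43 counts) and by 4930412O13Rik on the other (5 to 34). Hmga2 is overlapped by the antisense gene 1700006J14Rik (0 to 31). Hmga2 itself held 45, 31 and 26 counts in WT skin, and Gata3 held 240 and 330 in KO SCC. The counts are per gene, so the long and the short forms of p63 are not separated.

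Libraries held 34.4 to 47.9 M counts in mouse and 41.2 to 53.5 M in A431. Dusp1 itself was not lower in the mouse libraries labelled KO. Its level, in counts per 1e+06 counts of the scaled library size (CPM), was 52.4 to 109 in WT skin, 66.5 to 83.7 in WT SCC, 109 to 129 in KO papilloma and 139 to 174 in KO SCC, and the labels do not say which part of the gene was removed. In A431 DUSP1 was at 467 to 485 CPM in the control libraries and at 70.9 to 77.1 in the KO libraries. The labels give no sex, but the skin and KO SCC groups mixed sexes. Counts of 4 Y chromosome genes summed to 6624, 9552 and 7 in WT skin 1, 2 and 3. They summed to 4779 in KO SCC 2 and to 0 in the other mouse libraries. Xist, an RNA of female cells, was at 0.07, 0.70 and 382 CPM in WT skin 1, 2 and 3. It was at 15.3 in KO SCC 2 and at 203 to 497 in the other lesion libraries. Sex thus differed in part between skin and lesions and between the carcinoma groups. Its part in the results was not tested. Markers of several other tissues set WT skin apart, as the plot of marker lists shows. The adipocyte, Merkel cell, melanocyte and hair shaft sums of skin overlapped those of lesions. The 8 keratinocyte markers, all detected in every library, summed to 9253 to 17610 CPM in WT skin against 46830 to 79380 in the lesions. Those of fibroblasts (7 of 7 detected everywhere) summed to 5109 to 36830 against 1041 to 4028, and those of skeletal muscle to 4995 to 5985 against 4.64 to 105, with Tnnc2 at 0 in every lesion library.

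**Figure D1:**
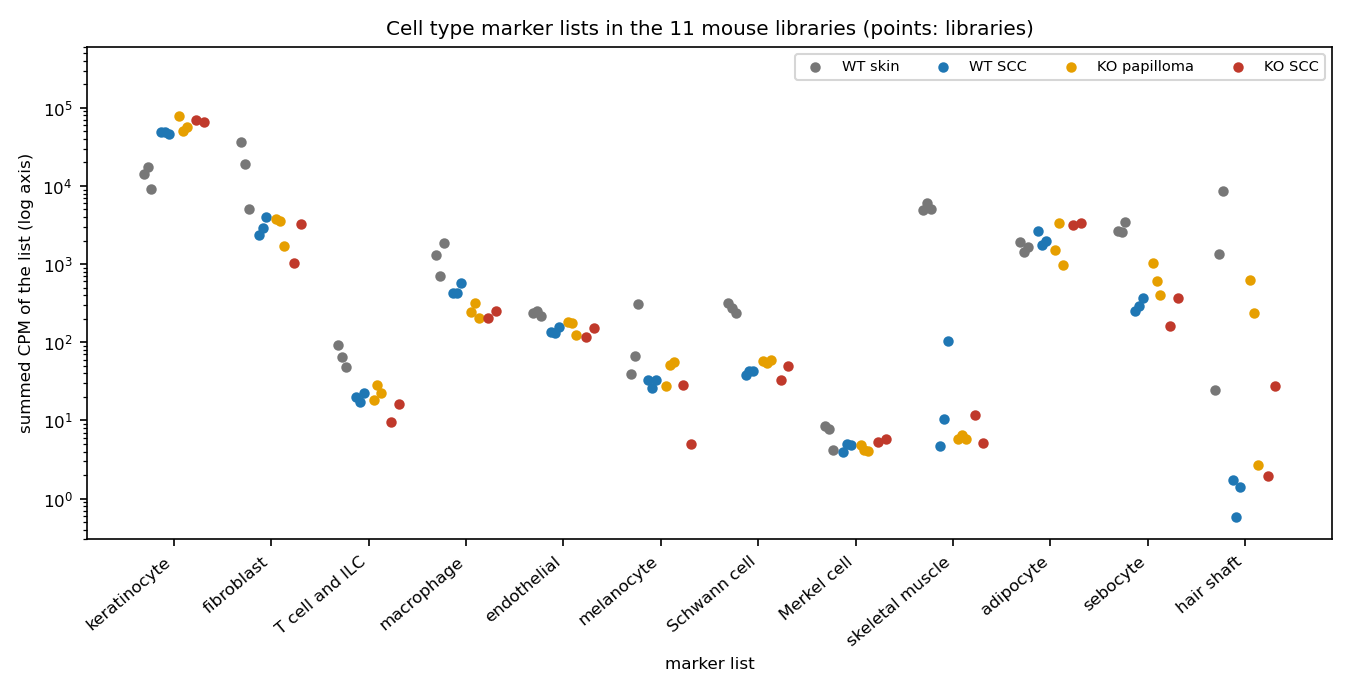
Summed CPM (log axis) of 12 cell type marker lists in the 11 mouse libraries, with a point for each library coloured by group. The sum of keratinocyte markers is lowest in WT skin (9253 to 17610 CPM), where skeletal muscle markers reach 4995 to 5985 CPM.

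The question of the first comparison was how the 10 genes differ between treated skin and lesions. In WT SCC against WT skin 7 genes rose (Trp63, Sox2, Pitx1, Hmga2, Klf4, Ovol1 and Grhl3) and 2 fell (Gata3 and Pou3f1), with Sox9 not past the threshold. The test was edgeR's quasi-likelihood test with Benjamini-Hochberg adjustment over all 22371 genes tested, at an adjusted p under 0.05, which holds for every mouse p below. The background was high: 40.5% of all tested genes passed, 16.9% higher and 23.6% lower. In KO papilloma against WT skin 6 genes rose and 1 fell, where 39.6% of all genes passed (17.1% higher, 22.4% lower). In KO SCC against WT skin 6 rose and 3 fell, where 44.8% passed (20.5% higher, 24.3% lower). The 3 comparisons share their skin libraries. The median log2 fold change of the 10 genes was 0.93, 1.47 and 1.80, against -0.16, -0.22 and -0.30 over all genes.

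The sum of keratinocyte markers was higher in the lesions. Each fold against skin was therefore also computed with libraries scaled to 6 keratinocyte genes (Cdh1, Jup, Dsp, Perp, Krt5 and Krt14). All 6 were themselves called higher in each lesion group, so this scale lowers folds against skin. The markers moved by unlike amounts. In WT skin and WT SCC, Krt14 had means of 5798 and 26580 CPM, and Cdh1 was at 200 to 212 and 305 to 335. Epcam, a marker outside the 6, was called lower in WT SCC (105 to 110 CPM against 158 to 207). The scaling moved the median of all tested genes from -0.16 to -1.42 in WT SCC, from -0.22 to -1.71 in KO papilloma and from -0.30 to -1.68 in KO SCC. The higher share of the calls went from 41.7% to 2.20%, from 43.3% to 1.95% and from 45.8% to 3.16%. The rises of Sox2, Pitx1, Hmga2 and Grhl3 and the fall of Gata3 passed on both scales in all 3 comparisons. Those of Trp63, Klf4 and Ovol1 did not. Sox9 in WT SCC and in KO papilloma, and Pou3f1 in KO papilloma, passed as lower on the keratinocyte scale alone. So did Trp63 in KO papilloma and KO SCC, Klf4 in WT SCC and KO papilloma, and Ovol1 in WT SCC.

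**Figure D2:**
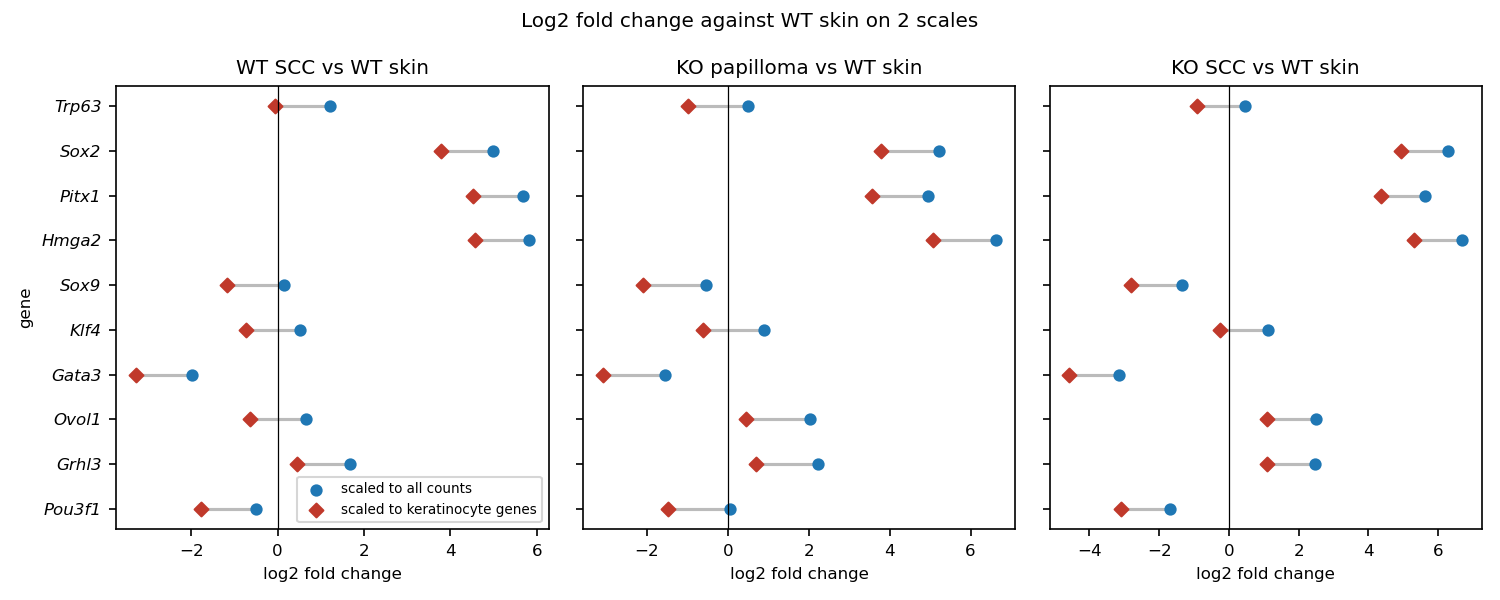
Log2 fold change of the 10 genes against WT skin in WT SCC, KO papilloma and KO SCC (3 panels), scaled to all counts (circles) or to 6 keratinocyte genes (diamonds). Sox2, Pitx1 and Hmga2 stay at 3.57 or above on both scales, while Trp63 and Klf4 cross 0.

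Trp63, the lineage factor, was at its highest in WT SCC. It was at 127, 227 and 213 CPM in WT skin, 455, 446 and 407 in WT SCC, 259, 264 and 283 in KO papilloma and 256 and 264 in KO SCC. Every lesion library lay above every skin library, and every WT SCC library above every library labelled KO. The rise from skin to WT SCC was 2.31-fold (log2 1.21 ± 0.19 SE, adjusted p = 0.000652, edgeR). Against skin, KO papilloma differed by 0.51 ± 0.19 (adjusted p = 0.0539) and KO SCC by 0.46 ± 0.21 (adjusted p = 0.0969), neither past the threshold. Scaled to keratinocyte genes all 3 turned negative, at -0.05 (adjusted p = 0.862, edgeR), -0.98 (0.00512) and -0.93 (0.0176). That scale includes Krt5, Krt14 and Perp, which belong to the list of basal keratinocyte genes and targets of p63 read below. It is therefore not independent of Trp63. KO SCC lay below WT SCC by a log2 difference of -0.75 ± 0.22 (adjusted p = 0.0592), and KO papilloma by -0.70 ± 0.19 (adjusted p = 0.0616). DESeq2 gave adjusted p = 0.00738 and 0.00548 for these differences.

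Sox2, an SRY-box factor of stem cells, was close to absent from skin and highest in KO SCC. Its level was 0.720, 0.986 and 0.511 CPM in WT skin (29, 49 and 29 counts), 23.2, 24.9 and 21.9 in WT SCC, 19.2, 26.0 and 37.2 in KO papilloma and 61.3 and 52.7 in KO SCC. WT SCC and KO papilloma overlapped, and both KO SCC libraries lay above all others. Sox2 rose 31.6-fold from skin to WT SCC (adjusted p = 4.69e-06), 37.2-fold to KO papilloma (2.79e-06) and 77.1-fold to KO SCC (1.64e-06), all with edgeR. Scaled to keratinocyte genes the log2 fold changes of 4.98, 5.22 and 6.27 became 3.77, 3.78 and 4.93. Of Merkel cells, which also express Sox2, the 5 markers summed to 4.16 to 8.41 CPM in skin and 3.89 to 5.86 in lesions, with Atoh1 at 0 in 5 of the 8 lesion libraries. Most of the lesion sum was Piezo2, at 3.32 to 4.82 CPM. Krt20, a keratin of these cells, was at 1.73 and 1.74 CPM in KO SCC against 0.103 to 0.232 in WT SCC and passed as higher there, as Sox2 did. Markers of Schwann cells, whose lineage can express it too, were lower in lesions (32.4 to 60.0 CPM) than in skin (234 to 314). The part of either cell type in the Sox2 levels was not tested.

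Pitx1, a paired-type homeobox factor, had the largest spread within skin relative to its mean of the 10 genes. WT skin held 9.95, 9.22 and 0.476 CPM, WT SCC 272, 384 and 343, KO papilloma 129, 171 and 305, and KO SCC 369 and 277. No skin library came near a lesion library, while the 3 lesion groups overlapped one another. Pitx1 rose 51.0-fold in WT SCC (adjusted p = 0.000419), 30.9-fold in KO papilloma (0.000809) and 49.6-fold in KO SCC (0.000416). On the keratinocyte scale the log2 fold changes of 5.67, 4.95 and 5.63 became 4.53, 3.57 and 4.37. Between KO SCC and WT SCC the log2 difference was -0.04 ± 0.77 (adjusted p = 0.989). That error leaves room for a change of a size that was called in other genes.

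Hmga2, an architectural chromatin protein with AT-hooks, showed the largest fold against skin of the 10 genes in all 3 lesion groups. Its level was 1.12, 0.624 and 0.458 CPM in WT skin (45, 31 and 26 counts), 45.8, 42.4 and 33.4 in WT SCC, 91.8, 49.7 and 70.3 in KO papilloma and 95.7 and 53.0 in KO SCC. Every library labelled KO lay above every WT SCC library, and papilloma and KO SCC overlapped. The rise was 56.3-fold in WT SCC (adjusted p = 5.69e-06), 98.1-fold in KO papilloma (4.19e-06) and 103-fold in KO SCC (3.17e-06), by edgeR. On the keratinocyte scale the log2 fold changes of 5.82, 6.62 and 6.69 became 4.57, 5.08 and 5.32. KO SCC against WT SCC differed by 0.88 ± 0.33 on the log2 scale and did not pass (adjusted p = 0.130). It passed in 3 of 11 alternatives, with DESeq2 (adjusted p = 0.0470), with no filter on low counts (0.00861) and in a fit of these 2 groups alone (0.0277). Without KO SCC 1, the higher of its 2 libraries, the log2 difference was 0.39 (adjusted p = 0.753).

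Sox9, the SRY-box factor of hair follicle stem cells, did not follow the other tumour-initiating factors. It was at 26.6, 35.05 and 67.8 CPM in WT skin, 49.9, 51.8 and 42.4 in WT SCC, 23.6, 28.6 and 36.5 in KO papilloma and 16.3 and 17.4 in KO SCC. Skin overlapped WT SCC and papilloma, and both KO SCC libraries were below all others. Against skin, WT SCC differed by 0.15 ± 0.29 (adjusted p = 0.692), a value that was -0.11 without WT skin 1 and passed as a rise without WT skin 3 (0.65, adjusted p = 0.0216). Scaled to keratinocyte genes it was -1.18 (adjusted p = 0.0160), and KO papilloma and KO SCC were lower than skin by log2 values of -2.11 (0.000471) and -2.82 (0.000317). KO SCC was 2.56-fold lower than skin (adjusted p = 0.00783), a call lost in 2 of 11 alternatives. A list of hair keratins differed between the skin libraries, with sums of 24.2, 1365 and 8526 CPM in WT skin 1, 2 and 3, the order that Sox9 and Gata3 also had. Most of its sum in WT skin 3 came from Krt71, Krt25 and Krt27, keratins of the inner root sheath, at 4265, 2419 and 1482 CPM. The part of hair in the Sox9 and Gata3 levels was not tested.

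**Figure D3:**
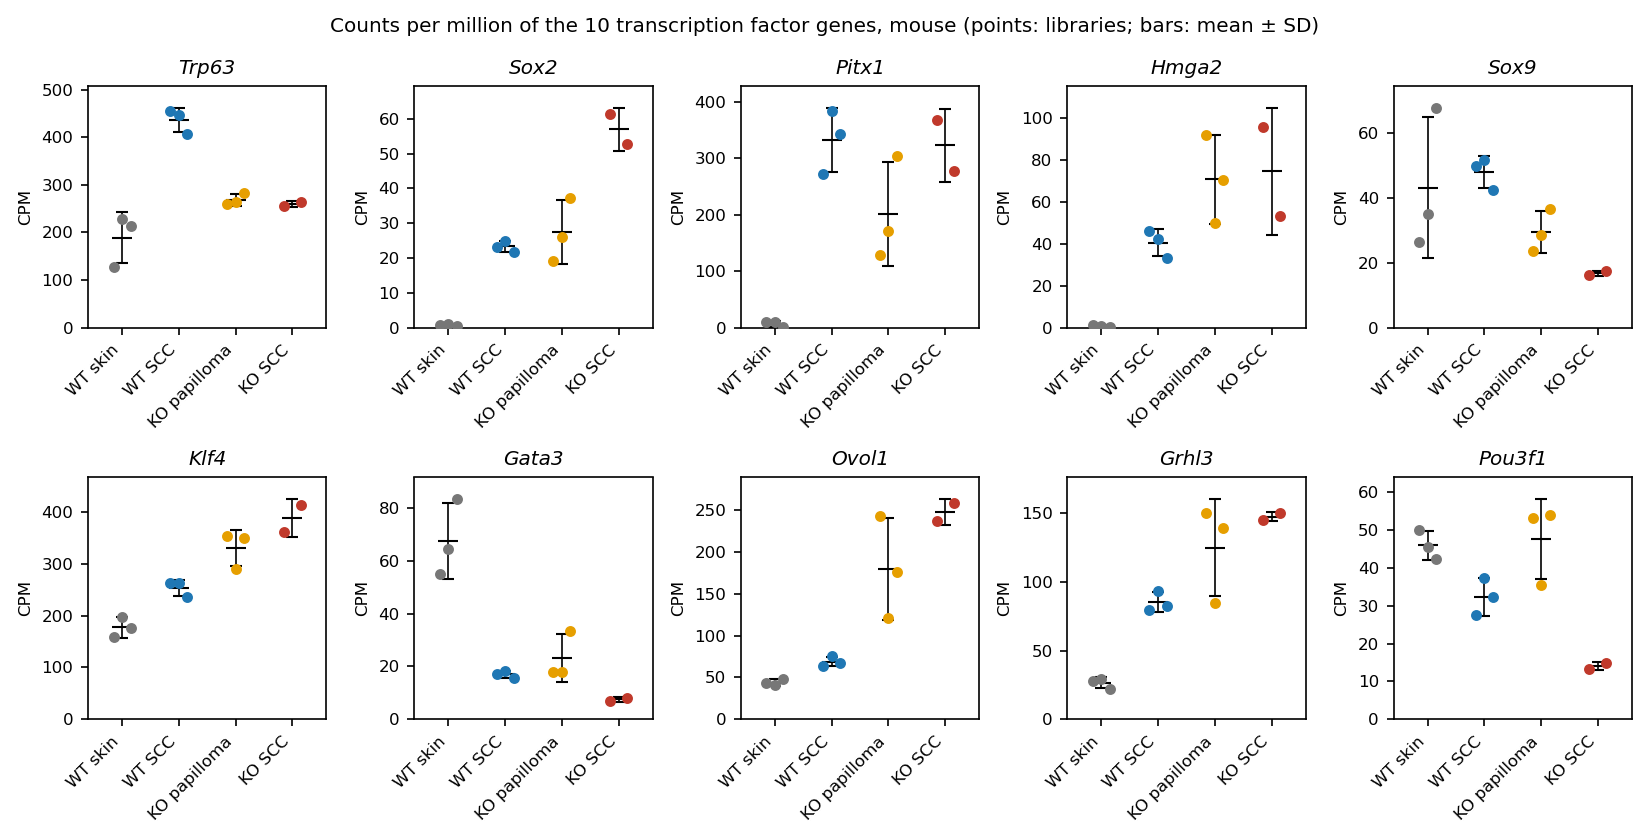
CPM of the 10 genes in each of the 11 mouse libraries (points) with the group mean ± SD (bars), 3 libraries a group except KO SCC with 2. Sox2, Pitx1 and Hmga2 sit near 0 in WT skin, and KO SCC holds the lowest levels of Sox9, Gata3 and Pou3f1 with the highest of Sox2.

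Klf4, a zinc finger factor of the skin barrier, rose by small steps. Its level was 158, 198 and 175 CPM in WT skin, 262, 262 and 235 in WT SCC, 353, 290.3 and 349 in KO papilloma and 362 and 413 in KO SCC. No group overlapped another. Against skin it was 1.43-fold higher in WT SCC (adjusted p = 0.0125), 1.87-fold in KO papilloma (0.000532) and 2.19-fold in KO SCC (0.000187). Scaled to keratinocyte genes the direction turned, to log2 differences of -0.74 (adjusted p = 0.00712), -0.60 (0.0175) and -0.25 (0.337).

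Ovol1, a zinc finger repressor that stops the cycling of keratinocytes as they differentiate, had the lowest adjusted p of the 10 genes between the carcinomas of the 2 genotype labels. WT skin held 42.9, 40.4 and 48.1 CPM, WT SCC 63.9, 75.1 and 67.5, KO papilloma 243, 121 and 176, and KO SCC 237 and 259. All 5 libraries labelled KO lay above all 3 of WT SCC, and papilloma and KO SCC overlapped. Ovol1 was 3.60-fold higher in KO SCC than in WT SCC (log2 1.85 ± 0.23, adjusted p = 0.00163) and 2.61-fold higher in KO papilloma than in WT SCC (1.39 ± 0.21, adjusted p = 0.00348), with edgeR. Both calls held under every alternative run, with adjusted p of 7.52e-12 to 0.0139 and of 2.13e-08 to 0.0263. Against skin it rose 1.57-fold in WT SCC (adjusted p = 0.0283), 4.11-fold in papilloma (6.06e-05) and 5.65-fold in KO SCC (2.41e-05). The WT SCC call was lost in 4 of 12 alternatives and turned to -0.63 (adjusted p = 0.0254) when scaled to keratinocyte genes, where the papilloma value was 0.46 (0.0789) and that of KO SCC 1.09 (0.00240).

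Grhl3, a Grainyhead factor of the cornified barrier, was at 28.1, 29.5 and 22.3 CPM in WT skin, 79.8, 93.4 and 82.5 in WT SCC, 150.4, 84.6 and 139.6 in KO papilloma and 145 and 150.2 in KO SCC. All lesion libraries exceeded skin, and papilloma 2 fell within WT SCC. The rise against skin was 3.20-fold in WT SCC (adjusted p = 0.000118), 4.69-fold in papilloma (2.95e-05) and 5.55-fold in KO SCC (2.02e-05). Scaled to keratinocyte genes it remained past the threshold at log2 0.44, 0.70 and 1.11.

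Gata3, a zinc finger factor of hair and T cell development, was the gene that fell in every lesion group. Its level was 54.9, 64.5 and 83.4 CPM in WT skin, 17.1, 18.1 and 15.7 in WT SCC, 17.8, 17.9 and 33.6 in KO papilloma and 6.92 and 8.19 in KO SCC. KO SCC lay below all other libraries, and papilloma overlapped WT SCC. The 3 skin levels lay in the order of the hair keratin sums given with Sox9. Against skin Gata3 was 3.98-fold lower in WT SCC (adjusted p = 0.00015), 2.93-fold in papilloma (0.000667) and 8.93-fold in KO SCC (3.28e-05). On the keratinocyte scale the log2 fold changes of -1.99, -1.55 and -3.16 became -3.29, -3.10 and -4.58. The 8 markers of T cells and innate lymphoid cells, all detected in every library, also had lower sums in lesions than in skin. Within skin they did not follow Gata3, with sums of 92.8, 64.3 and 48.3 CPM in WT skin 1, 2 and 3. They summed to 17.4 to 22.7 CPM in WT SCC, 18.5 to 28.7 in papilloma and 9.61 to 16.2 in KO SCC. Their part in the result was not tested.

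Pou3f1 was lowest in KO SCC. WT skin held 49.98, 45.6 and 42.3 CPM, WT SCC 27.5, 37.3 and 32.2, KO papilloma 53.2, 35.5 and 54.1, and KO SCC 13.4 and 14.9. KO SCC was separate from every other library, while papilloma overlapped skin and WT SCC. The gene was 1.42-fold lower in WT SCC than in skin (adjusted p = 0.0400), a call lost in 6 of 12 alternatives, and 3.25-fold lower in KO SCC (adjusted p = 0.000115). Papilloma differed from skin by 0.05 ± 0.18 (adjusted p = 0.830), or -1.48 (4.25e-05) when scaled to keratinocyte genes. On that scale WT SCC and KO SCC differed from skin by -1.77 (1.84e-05) and -3.09 (4.03e-06). The 7 Schwann cell markers summed to 234 to 314 CPM in skin, 38.4 to 43.5 CPM in WT SCC, 54.8 to 60.0 in papilloma and 32.4 to 49.1 in KO SCC, and their part in the Pou3f1 levels was not tested.

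The comparison of carcinomas by genotype label, KO SCC against WT SCC, asks what differs with the label within 1 lesion type. Of these libraries KO SCC 2 alone held Y chromosome counts. Sox2, Klf4, Ovol1 and Grhl3 rose and Sox9, Gata3 and Pou3f1 fell, which is 4 and 3 of the 10 genes. Of all tested genes 7.87% passed, 4.48% higher and 3.38% lower. Besides Ovol1, Sox2 was 2.44-fold higher (log2 1.29 ± 0.27, adjusted p = 0.0169), Klf4 1.53-fold (0.61 ± 0.15, 0.0350) and Grhl3 1.73-fold (0.79 ± 0.22, 0.0490), with edgeR. Sox9 was 2.85-fold lower (log2 -1.51 ± 0.35, adjusted p = 0.0252), Gata3 2.24-fold (-1.17 ± 0.29, 0.0339) and Pou3f1 2.29-fold (-1.20 ± 0.21, 0.00782). For 9 of the 10 genes, all but Pitx1, the KO SCC and WT SCC libraries were fully separate, as they were for 46.6% of all genes. The call of Pou3f1 was lost without KO SCC 1 (adjusted p = 0.0955).

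With 2 KO SCC libraries, most of these calls rest on all 5 libraries. Leaving out any 1 of the 5 left 1 or 2 genes past the threshold, and Sox2, Klf4, Grhl3, Sox9 and Gata3 lost the call each time while keeping their direction. The number of all genes past the threshold then fell from 1760 to 302 to 974. Perp, a gene of the keratinocyte scale, was itself called higher in KO SCC. Scaled to keratinocyte genes, Ovol1 (log2 1.72, adjusted p = 0.00656, edgeR) and Pou3f1 (-1.32, 0.0149) passed. Sox2, Sox9, Gata3, Grhl3 and Klf4 had log2 differences of 1.16, -1.64, -1.29, 0.67 and 0.49 there, with adjusted p of 0.0647, 0.0852, 0.0804, 0.102 and 0.304. On that scale 45.7% of the calls over all genes were higher, against 57.0%, and the median of all genes moved from -0.0067 to -0.13. Keratinocyte markers summed to 65590 to 70660 CPM in KO SCC and to 46830 to 48960 in WT SCC. Macrophage markers summed to 205 to 248 and 423 to 570, all 7 detected in each library, and their part in these results was not tested.

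**Figure D4:**
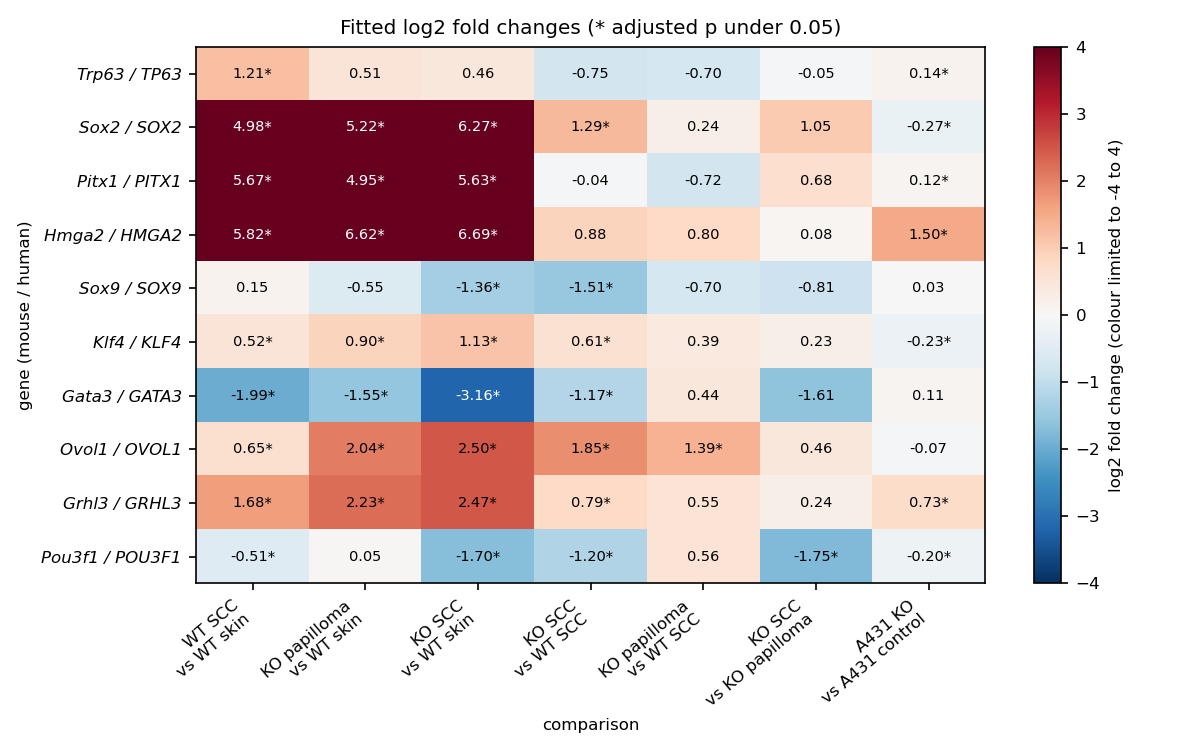
Fitted log2 fold changes of the 10 genes (rows) in 6 mouse comparisons and 1 A431 comparison (columns), with colour limited to -4 to 4 and an asterisk where the adjusted p is under 0.05. In KO SCC against WT SCC 4 genes are higher and 3 lower past the threshold, and in KO SCC against KO papilloma Pou3f1 alone passes.

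Between the 2 lesion types with the same genotype label, KO SCC against KO papilloma, Pou3f1 fell 3.37-fold (log2 -1.75 ± 0.21, adjusted p = 0.0196). None of the other 9 genes passed, and 0.286% of all tested genes did, 0.0492% higher and 0.237% lower. Gata3 was 3.05-fold lower in KO SCC with adjusted p = 0.0520, and Sox2 2.07-fold higher with adjusted p = 0.140. DESeq2 called both, with adjusted p = 1.25e-05 and 0.00735. Trp63 and Hmga2 differed by -0.05 ± 0.21 and 0.08 ± 0.34 on the log2 scale. The call of Pou3f1 was lost without either KO SCC library (adjusted p = 0.195 and 0.0564) and without papilloma 3 (0.0568), and on the keratinocyte scale (0.0509). On that scale the median of all genes moved from -0.05 to 0.05, and 0 of 4 calls were higher, against 17.2%.

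In KO papilloma against WT SCC, Ovol1 rose and none of the other 9 genes passed, where 5.25% of all tested genes did, 3.49% higher and 1.77% lower. Klf4 was 1.31-fold higher (adjusted p = 0.148), Grhl3 1.47-fold (0.148) and Pou3f1 1.47-fold (0.102). Leaving out papilloma 2, the library with the lowest Ovol1, Grhl3 and Klf4 of its group, put Grhl3 (log2 0.77, adjusted p = 0.0153) and Pou3f1 (0.73, 0.0225) past the threshold. On the keratinocyte scale 52.8% of the calls over all genes were higher, against 66.4%, and the median of all genes moved from 0.02 to -0.21. Ovol1 passed on both scales.

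Per length of annotated exon, the order of the 10 genes changed from skin to lesions. In skin Klf4 led at 58.1 RPKM (CPM per kilobase of exon) before Trp63 at 22.6 and Gata3 at 16.99, and Sox2 at 0.359 and Hmga2 at 0.108 were last. In WT SCC Pitx1 led at 125 RPKM, before Klf4 at 83.0 and Trp63 at 52.0. In KO papilloma and in KO SCC the order of the first 3 was Klf4 (109 and 127), Pitx1 (75.9 and 122) and Ovol1 (51.6 and 71.0). Trp63 took the fifth place there, at 32.0 and 31.0. Gata3 was last in all 3 lesion groups, at 4.26, 5.80 and 1.90. Neighbours such as Pitx1 and Klf4 in KO SCC differ by less than the spread of Pitx1 between libraries. The places also depend on the length used, which merges the exons of all forms of a gene (8391 bases in Trp63, 3049 in Klf4). By mean CPM Trp63 led in skin, at 189 against 177 for Klf4. It also led in WT SCC, at 436 against 333 for Pitx1.

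The genes whose levels followed each member most closely over the 11 libraries were found by the root-mean-square difference of log2 CPM, each gene centred on its own mean, among 13866 genes. For Trp63 these were Pabpc1 (0.124), Snai2 (0.130) and Etv5 (0.136), against a standard deviation of Trp63 itself of 0.530. Klf4 was followed by Tjp1 (0.0971), Klf3 (0.111) and Ppp2r2a (0.124), and Grhl3 by Scnn1g (0.154), E2f8 (0.167) and Mxd1 (0.188). Hmga2 had another member, Sox2, in second place (0.707), between 2300002M23Rik (0.706) and Klk14 (0.836). Sox2 was nearest to Wincr1 (0.479), Gm3776 (0.527) and Cemip (0.589), and Pitx1 to Sh2d5 (0.652), Tmprss11b (0.811) and Gsta4 (0.871). Gata3 was followed by Tril (0.222), BC034090 (0.309) and Traf5 (0.318), and Ovol1 by Hs3st1 (0.219), Rhof (0.232) and Rnf222 (0.245). Sox9 lay closest to Sesn3, Nckap5l and Il3ra (0.224 to 0.241) and Pou3f1 to Cbarp, Nol3 and Grina (0.276 to 0.292). These distances share the libraries and the contrast of skin with lesions, and they are descriptions of 11 libraries.

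Other genes of the same programmes were read from 5 lists. Of 17 basal keratinocyte genes and targets of p63, 12 rose and 3 fell from skin to WT SCC, where 16.9% of all tested genes rose and 23.6% fell. Krt14, the basal keratin, rose 4.58-fold (adjusted p = 0.000363, edgeR) and Lama3, a laminin chain of the basement membrane, 4.76-fold (0.00126), while Krt15, a keratin of basal and bulge cells, was 5.15-fold lower (5.42e-06). Between KO SCC and WT SCC, where 7.87% of all genes passed, 1 rose (Perp, a desmosomal target of p63, 2.001-fold, adjusted p = 0.00562) and 1 fell (Krt15, 2.37-fold lower, 0.00313). The median log2 fold change of that list there was -0.40, against -0.01 over all genes.

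Of 18 late differentiation genes, 13 rose and none fell in KO papilloma against WT SCC, with a median of 1.40 against 0.02 over all genes, of which 3.49% rose and 1.77% fell. Krt1, a suprabasal keratin, rose 8.06-fold (adjusted p = 0.000943, edgeR) and Cdsn, which encodes corneodesmosin, 4.54-fold (0.000386). In KO SCC against WT SCC 8 rose and 1 fell, where 4.48% of all genes rose and 3.38% fell. Tgm3, a transglutaminase that crosslinks the cell envelope, rose 8.12-fold (adjusted p = 0.0107) and Dsc1, a desmosomal cadherin, 4.11-fold (0.00311), while Krt10, the suprabasal partner of Krt1, was 3.01-fold lower (0.0178). In KO SCC against KO papilloma Krt1, Krt10 and Flg fell, by 7.84-, 7.51- and 7.04-fold (adjusted p = 0.0300, 0.0196 and 0.0162, edgeR), and no gene of that list rose. Of all tested genes 0.237% fell and 0.0492% rose in that comparison. Without papilloma 3 it had 0 genes past the threshold.

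Of 23 other epidermal transcription factors, 11 rose and 4 fell from skin to WT SCC, again beside 16.9% and 23.6% of all genes. Runx1 rose 3.52-fold (adjusted p = 2.36e-05, edgeR) and Klf5 3.32-fold (6.40e-05). The 4 that fell were Grhl1, Cebpa, Casz1 and Dlx3, with Dlx3 5.25-fold lower (0.0275). Between KO SCC and WT SCC 3 rose (4.48% of all genes did), among them Ehf, an ETS factor of epithelia (2.64-fold, adjusted p = 0.00520), and Grhl1, the relative of Grhl3 (1.64-fold, 0.0128). The 2 that fell were Runx1 (2.19-fold lower, 0.00606) and Ovol2, the relative of Ovol1 (2.38-fold lower, 0.00583, at 3.17 against 7.56 CPM). Ovol1 and Ovol2 thus moved in opposite directions in that comparison.

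Of 12 hair follicle stem cell genes 9 fell and none rose from skin to WT SCC, and 10 fell in each of the groups labelled KO. The shares of all genes that fell were 23.6% in WT SCC, 22.4% in KO papilloma and 24.3% in KO SCC. Lhx2 was 30.5-fold lower in WT SCC (adjusted p = 0.000173, edgeR) and Lgr5 6.80-fold (0.000158). Sox9, a factor of the same cells, did not pass there. In KO SCC against WT SCC Nfatc1, Tcf7l2 and Gli2 fell (1.97-, 2.66- and 3.30-fold, adjusted p = 0.0344, 0.0116 and 0.0269, edgeR), beside Sox9. Of all tested genes 3.38% fell and 4.48% rose in that comparison. Of 15 tumour-initiating and stem cell genes, 6 rose and 4 fell from skin to WT SCC (40.5% of all genes passed), Vegfa by 5.96-fold upward (adjusted p = 0.000114) and Twist1 by 6.57-fold downward (0.000308). Between KO SCC and WT SCC Igf2bp2, which encodes an RNA-binding protein, rose 2.66-fold (0.0318). Hmga1, the relative of Hmga2, was 2.10-fold lower (0.00763) and Snai2 1.76-fold lower (0.0263).

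In A431 xenografts HMGA2 and GRHL3 showed the largest changes of the 10 genes. Against the control 4 genes rose (TP63, PITX1, HMGA2 and GRHL3) and 3 fell (SOX2, KLF4 and POU3F1), by edgeR's quasi-likelihood test over 18090 genes. The background was 47.6% of all genes, 23.1% higher and 24.5% lower. Control and KO libraries were fully separate for 6 of the 10 genes and for 55% of all genes. The biological coefficient of variation was 6.11% here and 36.6% in mouse, so smaller changes passed. The 8 keratinocyte markers were all detected, at 57600 to 61660 CPM in the control and 57300 to 59550 in the KO libraries.

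HMGA2 was at 24.3, 24.1 and 23.8 CPM in the control and 71.2, 69.2 and 64.5 in the KO libraries. It rose 2.84-fold (log2 1.504 ± 0.06, adjusted p = 7.72e-13) and passed in every alternative. GRHL3 was at 53.7, 55.5 and 52.0 CPM against 88.0, 88.7 and 90.9. It rose 1.66-fold (log2 0.73 ± 0.05, adjusted p = 1.97e-09) and also passed in every alternative. In both genes every KO library was above every control library.

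The other called changes were 1.09- to 1.20-fold in size. TP63 went from 717, 731 and 692 CPM to 809, 783 and 762 (log2 0.14 ± 0.04, adjusted p = 0.0117), and PITX1 from 120.0, 118 and 126 to 130.0, 133 and 135 (0.12 ± 0.05, 0.0335). KLF4 went from 119.5, 119 and 122 to 99.6, 98.6 and 109 (log2 -0.23 ± 0.05, adjusted p = 0.000891), and this call held in every alternative. SOX2 went from 12.2, 12.6 and 13.3 to 10.2, 10.6 and 10.8 (-0.27 ± 0.08, 0.0108), a call lost without control replicate 3 (0.0522). The POU3F1 groups overlapped, at 26.0, 22.7 and 24.5 against 23.1, 20.3 and 20.3 CPM (-0.20 ± 0.07, 0.0321). Leaving out 1 library at a time ended the calls of TP63 (without control replicate 1 or 3), PITX1 (4 of 6 libraries) and POU3F1 (4 of 6), with adjusted p up to 0.0753, 0.180 and 0.141.

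SOX9, GATA3 and OVOL1 did not pass. SOX9 differed by 0.03 ± 0.05 on the log2 scale (adjusted p = 0.702) and OVOL1 by -0.07 ± 0.07 (0.406), with KO library 1 lowest at 55.0 CPM against 67.7 and 66.8. GATA3 differed by 0.11 ± 0.06 (adjusted p = 0.116) and passed without that library (0.16, 0.00924). Of the 15 tumour-initiating genes 11 were tested, of which 4 rose and 5 fell, where 23.1% of all genes rose and 24.5% fell. IGF2BP3 rose 2.07-fold (adjusted p = 3.16e-08, edgeR) and IGF2BP2 1.53-fold (4.72e-09), while NRP1 was 1.93-fold lower (3.25e-08). Of the 18 late differentiation genes 16 were tested, of which 7 rose and 5 fell. SPRR1A, a precursor of the cornified envelope, rose 2.26-fold (9.03e-13), while KRT10 was 1.82-fold lower (2.78e-09). Of 22 other epidermal transcription factors tested, 6 rose and 10 fell, among them OVOL2, 2.36-fold lower (1.62e-05, at 1.41 against 3.31 CPM).

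**Figure D5:**
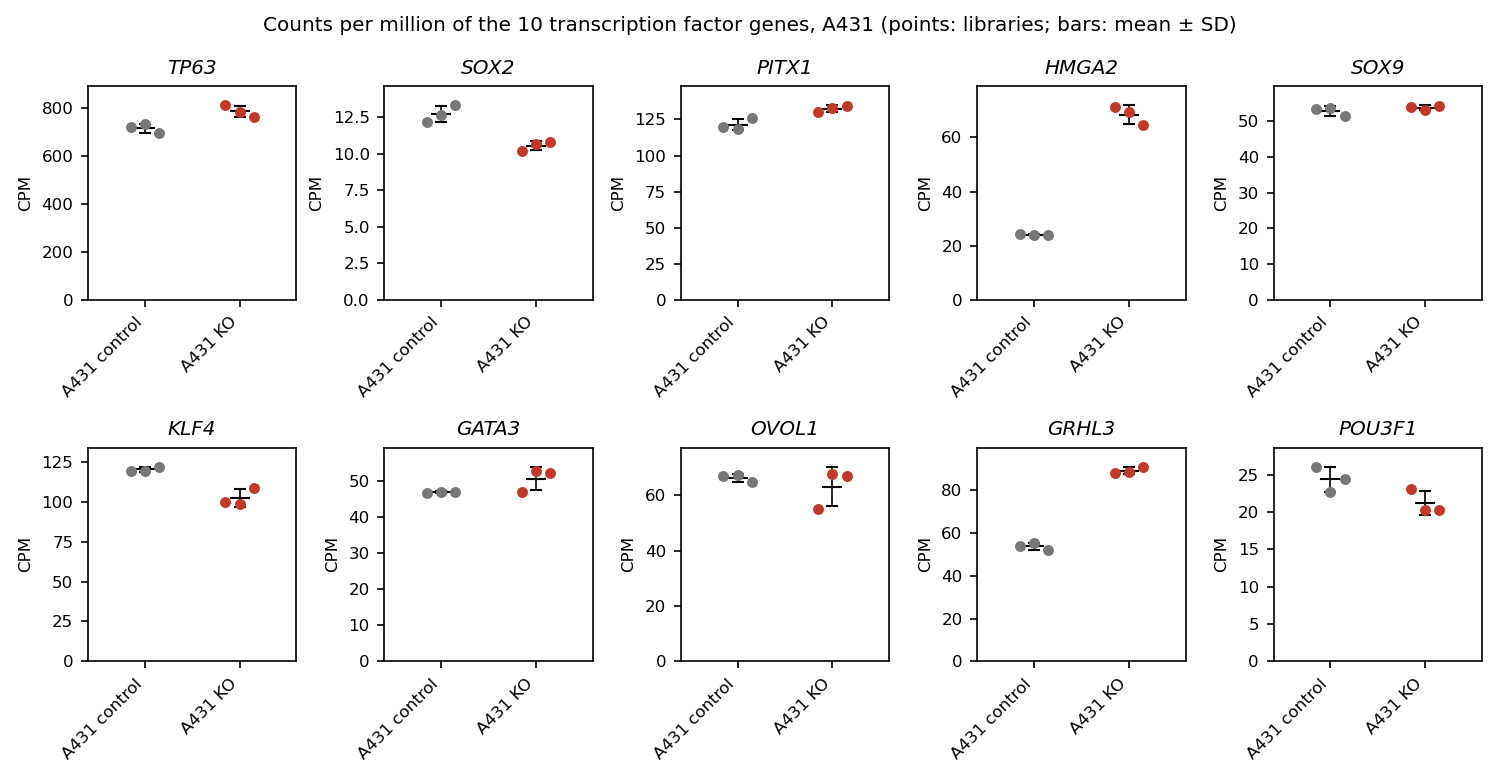
CPM of the 10 human genes in 3 A431 control and 3 A431 KO libraries (points) with the group mean ± SD (bars), on axes that start at 0. HMGA2 (23.8 to 24.3 against 64.5 to 71.2) and GRHL3 (52.0 to 55.5 against 88.0 to 90.9) stand apart, and the other 8 genes differ by small amounts or overlap.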

How the data were processed

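RNA of 11 mouse and 6 A431 libraries was sequenced with a stranded kit for polyadenylated RNA, per the labels' protocols. The deposited values are raw counts per gene, whole numbers with no normalization by the authors. HISAT2, StringTie and DESeq with mm10 and hg38 are named without versions, per the submitters' processing notes. No source used here gives the counting rule, strand setting or annotation, so overlapping and antisense genes are uncertain.

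Rows without a gene name (0.115 to 0.496% of the counts in mouse, 0.190 to 0.211% in A431) were left out. The 4 mouse groups were fitted together and A431 alone, with edgeR 4.0.16 in R 4.3.3 (default filter on low counts, TMM, quasi-likelihood test, two-sided), adjusted over 22371 and 18090 genes by Benjamini-Hochberg, threshold 0.05. The fit was also run on simulated counts with independent libraries and the same spread for all genes. That run cannot show how it handles libraries that are not independent. Alternatives were RLE size factors, no filter, DESeq2 1.42.0, a replicate block, only the 2 groups compared, scaling to keratinocyte genes and leaving out each library. Levels are counts per 1e+06 of the TMM-scaled library size. Fold values come from the fitted log2 changes, and SE from the fold and its F statistic.

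The 10 genes and all lists were chosen with earlier results of these data known. List genes named are up to 4 for each list and comparison, by size of change among those past the threshold with average log2 CPM of at least 1, from which examples were taken. Likeness used a prior count of 2. The labels do not pair samples by library number. Deviations from the group means correlated at -0.411 to 0.166 between same-numbered mouse libraries and at -0.392 to 0.442 between the others. In A431 the ranges were -0.0275 to 0.00688 and -0.0176 to 0.0234. With 2 or 3 libraries a group these deviations are tied to each other, so they cannot show whether samples are paired. The column names number the KO SCC libraries otherwise than the titles do.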

Additional observations from a re-analysis of the deposited data

Results flagged for a closer look

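For 3 genes the libraries were fully separate both in KO SCC against WT SCC and in A431 KO against control, with opposite directions. Libraries were fully separate for 46.6% of all tested genes in the mouse comparison and 55% in A431. The share of all genes that were opposite in this way was not computed. Trp63 was lower in KO SCC than in WT SCC (log2 fold change -0.75, not past the threshold) while TP63 was higher in A431 KO than in the control (0.14). Sox2 was higher in KO SCC (1.29) and SOX2 lower in A431 KO (-0.27), and Klf4 was higher (0.61) and KLF4 lower (-0.23). The difference between the 2 systems was not tested. The groups hold 2 or 3 libraries each, too few for a rule on outlying samples.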

How the results depend on the processing

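Of 70 results (10 genes in 7 comparisons), 41 passed the threshold and 22 of these did so under every alternative run. Another 19 lost the call or turned under at least 1, 15 that had not passed did so under at least 1, and 15 changed sign under at least 1. With 2 or 3 libraries a group, changes near the threshold depend on each library, and without a KO SCC library the lone other one is assumed to vary like the other groups. The cause of the changes below was not tested.

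For KO SCC against WT SCC, where 1760 genes and 7 of the 10 passed, DESeq2 gave 3466 genes with 9 of the 10, the fit of 2 groups 4164 with 9, no filter 8 of the 10 and the keratinocyte scale 481 with 2. For KO SCC against KO papilloma (64 genes and 1), DESeq2 gave 941 and 3, no filter 611 and 3, and the keratinocyte scale 4 and 0. For KO papilloma against WT SCC (1175 and 1), DESeq2 gave 2232 and 4, no filter 1854 and 3, the fit of 2 groups 1797 and 4, and the keratinocyte scale 572. Against WT skin the keratinocyte scale gave 16529 genes for WT SCC (9057 otherwise) and 17637 for KO papilloma (8850).

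Leaving out 1 library at a time gave 302 to 974 genes and 1 to 2 of the 10 for KO SCC against WT SCC. It gave 0 to 84 and 0 to 2 for KO SCC against KO papilloma, 478 to 1100 and 1 to 3 for KO papilloma against WT SCC, and 5884 to 9891 and 8 to 9 for KO SCC against WT skin (10013 and 9 with all). For WT SCC against WT skin it gave 6756 to 9585 and 7 to 10, for KO papilloma against WT skin 7239 to 8855 and 7 to 8, and for A431 7435 to 9564 and 4 to 8.

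With the replicate number as a block, KO SCC against WT SCC gave 795 genes and 4 of the 10, and KO SCC against KO papilloma 1 and 0. The numbers carry no pairing in the labels, and whether any samples are paired is not known. A call lost there is therefore not read either way.

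On the keratinocyte scale the sign turned against WT skin for Trp63 in WT SCC (-0.051), KO papilloma (-0.98) and KO SCC (-0.93), for Klf4 (-0.74, -0.60 and -0.25), for Ovol1 (-0.63) and Sox9 (-1.18) in WT SCC and for Pou3f1 in KO papilloma (-1.48). Trp63 in KO SCC against KO papilloma became 0.058. Values near 0 also turned, below with the range when 1 library at a time was left out. Hmga2 in KO SCC against KO papilloma became -0.063 with the replicate block, -0.12 without papilloma 2 and -0.41 without KO SCC 1 (-0.41 to 0.44). Pitx1 in KO SCC against WT SCC became 0.017 with no filter, 0.15 without KO SCC 2 and 0.058 without WT SCC 2 (-0.26 to 0.15). Pou3f1 in KO papilloma against WT skin became -0.035 and -0.052 without papilloma 1 or 3 (-0.052 to 0.23). Sox2 in KO papilloma against WT SCC became -0.044 without papilloma 3 (-0.044 to 0.44), and Sox9 in WT SCC against WT skin -0.11 without WT skin 1 (-0.11 to 0.65). In A431 SOX9 became -0.0013 with no filter and OVOL1 0.014 without KO library 1 (-0.12 to 0.014).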
